A study of Drosophila melanogaster with 15 samples.

Results

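The transcripts described here encode proteins of the cytoplasmic ribosome of Drosophila melanogaster. A probe set was taken where the array's annotation gave it a single gene symbol that begins with RpL or RpS and a digit, or that is RpLP0, RpLP1, RpLP2 or sta, with 1 probe set kept per gene. This gave 36 of 10845 genes that the annotation names singly, with 1 probe set each among 13966 probe sets that are not controls. By name, 21 of the 36 belong to the large subunit and 15 to the small subunit. The 21 hold RpL24-like and RpL7-like, whose yeast relatives are assembly factors of the large subunit and not part of the finished ribosome, so the large-subunit counts below are also given without them. The reference gene table names 92 genes by the same rule, and the other genes were not analysed here. Whole embryos were sorted by hand under the microscope into 5 stages and profiled on Affymetrix arrays, with 3 arrays per stage and 15 in all. For every array the labels give an egg collection of 30 min at 25 °C and 6 µg of total RNA. T0 embryos were younger than nuclear cycle 9, T1 embryos were in the slow phase of cellularisation and T2 embryos in its fast phase. By the sample labels germ band elongation began in T3 embryos and ended in T4 embryos, while the series text says the same of gastrulation. All stages came from yellow white and Oregon R flies, named as parents for T0 and T1 and as embryos for T2 to T4, with no treatment or transgene. Each array holds RNA from many whole embryos, so fewer cells of a type and less RNA per cell cannot be told apart.

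A ribosome is built from ribosomal RNA and about equal numbers of its many proteins, which are assembled in the nucleolus into a large and a small subunit. The small subunit reads the messenger RNA and the large subunit joins amino acids. A Drosophila egg receives ribosomes and messenger RNA for ribosomal proteins from the mother, and the embryo's own genes take over when zygotic transcription begins. Mutations in many of these genes give the Minute phenotype, with delayed growth and short bristles. Several of the genes have a second copy, and some of the copies are used mainly in the ovary or testis.

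The values are array signals that the authors scaled so that the 2% trimmed mean of every array was 100. This mean leaves out the highest and the lowest 2% of signals, and the middle member lay among the highest 2% on every array. A change in a deposited signal is therefore a change relative to the probe sets between these ends, and not to transcripts as bright as most members. A second scale divides each signal by the geometric mean of 9 AFFX-Bio and AFFX-Cre probe sets, which read bacterial control RNAs that the standard Affymetrix protocol adds at hybridisation, after RNA extraction. Neither scale measures RNA per embryo. Pearson r over all probe sets was 0.925 to 0.964 for pairs of arrays from the same stage and 0.749 to 0.949 for pairs from different stages. Marker genes were read against the T0 and T1 labels. All 4 measured maternal markers fell and all 5 zygotic cellularisation markers rose in T1 against T0 on both scales, and 0 of 10 eggshell and yolk protein genes, which mark ovary or adult tissue, were called (limma with Benjamini-Hochberg adjustment). That last count cannot show whether such tissue was present alike in both stages. All 5 zygotic markers fell in T2 against T1, with a median log2 difference of -2.87 as deposited, and no list fixed here marks T3 or T4. The ratio of the 3′ to the 5′ actin control probe set, a sign of RNA quality, had stage means between 1.77 and 2.42, and the same ratio for eIF-4a had stage means between 2.94 and 3.39. For GAPDH the ratio had stage means of 2.12 at T0, 4.38 at T1, 0.726 at T2, 2.52 at T3 and 2.56 at T4, but its 3′ probe set averaged 5161 at T0 and had stage means of at most 45.0 later, around the level of the negative controls given below. The part of these ratios in the results below was not tested.

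The members' probe sets were bright. On each array the middle member had a signal higher than between 99.6% and 99.7% of all probe sets. The 36 members together held 6.11 ± 0.648% of the summed signal at T0, 8.21 ± 0.262% at T1, 8.71 ± 0.385% at T2, 8.33 ± 0.286% at T3 and 8.60 ± 0.854% at T4 (SD, n = 3 each). A total of 31 members, 19 of the large and 12 of the small subunit, lay on all 15 arrays above 21.96, the 95th percentile over 23 negative-control probe sets. Signals of different probe sets depend on their probes, so the order of members below is an order of signals and not of RNA amounts.

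The 3 highest mean signals belonged to RpS20, RpLP1 and RpL3. RpS20, a protein of the small subunit's head, had signals of 7385, 6899.8 and 10455 at T0, 13798, 12725 and 12479.9 at T1, 13693, 12910.5 and 14251 at T2, 12287, 14229 and 11909 at T3, and 10997, 14801 and 11679 at T4. RpLP1, which forms with RpLP2 and RpLP0 the stalk that calls elongation factors to the ribosome, had signals of 8146, 6787 and 8115 at T0, 13024, 9997 and 10400.2 at T1, 13744, 11592 and 11864 at T2, 12873, 11276 and 11058 at T3, and 10639.7, 17346 and 11389 at T4. RpL3, which lies beside the site of peptide bond formation, had signals of 6567, 6172 and 6979 at T0, 11032, 9758 and 9501 at T1, 11992, 11826 and 11304 at T2, 11305, 12056 and 10874 at T3, and 11865, 14465 and 11257 at T4. In all 3 genes the T0 arrays were the lowest and did not overlap with any later array. T4 replicate 2 was the highest array of all 15 for each of the 3 genes.

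Of the other 5 members, 2 were below the negative controls on all 15 arrays and 3 were above on some. RpS28a lay between 1.8 and 15.1 and RpL22-like, which in Drosophila is known from the testis, between 2.4 and 21.4. RpL10Aa was above on 1 of 15 arrays, with signals of 5.7, 1.5 and 4.9 at T0, 3.4, 1.4 and 6.4 at T1, 13.4, 13.8 and 19.2 at T2, 0.8, 20.7 and 6.0 at T3, and 10.5, 22.5 and 0.4 at T4. RpS10a was above on 4 arrays, with a highest signal of 43.3 on a T3 array. RpS19b, which is known from the female germ line, was above on 5 arrays and highest at 66.7 on T4 replicate 2. None of these 5 was called in any comparison of deposited signals.

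**Figure D1:**
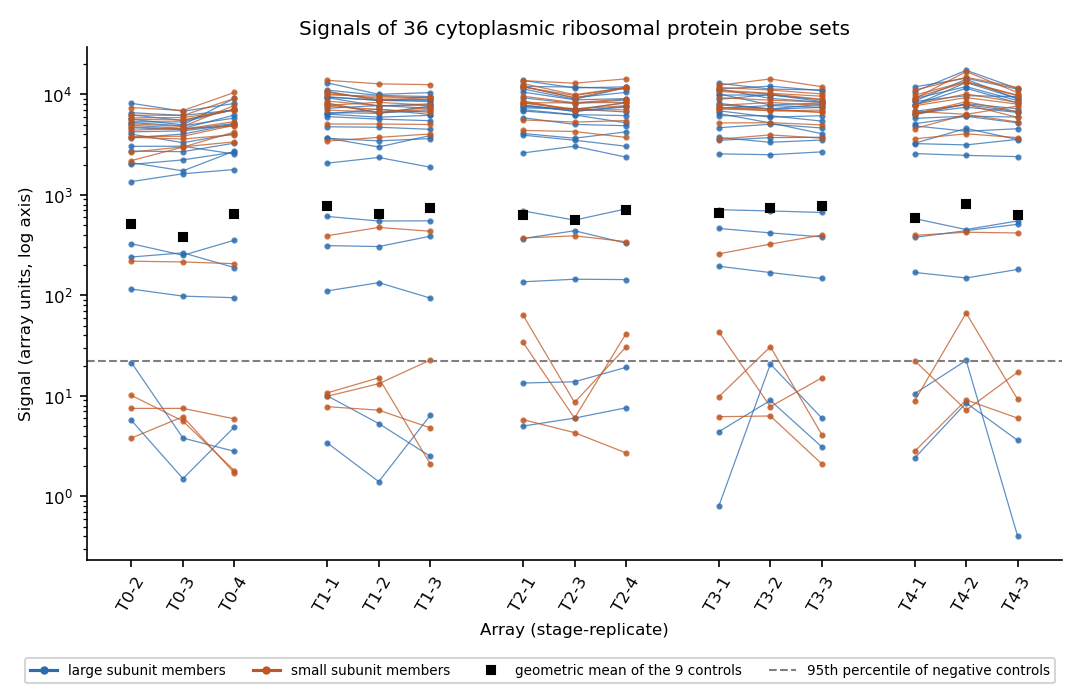
Signal of each of the 36 members on the 15 arrays (log axis, array units), with lines joining the arrays of 1 stage and labels giving stage and replicate, beside the geometric mean of the 9 controls and the 95th percentile of the negative controls at 21.96. Most members lie above the controls on every array and are lower at T0 than later, and 5 members lie around or under the dashed line.

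The comparison of T1 with T0 asked how the transcripts differ between the maternal period and slow cellularisation. In the deposited signals 21 of the 36 members rose and 0 fell, where 15.7% of all probe sets rose and 17.1% fell (limma, Benjamini-Hochberg adjusted p under 0.05 over all 13966). Shares over probe sets as bright as the members were not taken. The highest signal of any probe set was 10426, 8892.5 and 12328 on the T0 arrays and 15972.5, 14097 and 14554 on the T1 arrays. Whether other bright probe sets rose alike was not tested. The median log2 difference of the members was 0.62, against 0.08 over all probe sets, and 0 of the calls reached a log2 difference of 1, a size that 7.82% of all probe sets passed as higher calls. On 27 of 36 members every T1 array lay above every T0 array, which was so for 22.6% of all probe sets. These p-values reflect no more than the spread between the samples, possibly a technical one, since the labels do not say that the embryos were collected separately. The middle member had 6481, 6505 and 6459 on the T1 arrays, against 3768, 3711 and 4521 on the T0 arrays.

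RpS29, a zinc-binding protein of the small subunit, and RpL29, of the large subunit, had the highest differences among the members called. RpS29 had 219, 215 and 206 at T0, 392, 474 and 434 at T1, 372, 391 and 342 at T2, 259, 324 and 398 at T3, and 395, 424 and 417 at T4, with a log2 difference of 0.99 ± 0.18 (SE) in T1 against T0 (limma adjusted p = 0.000634). RpL29 had 3038, 3044 and 2545 at T0, 6006, 5669 and 5467 at T1, 6831, 6235 and 5203 at T2, 6447, 5193 and 4054 at T3, and 5091, 6046 and 5207 at T4, with a difference of 0.99 ± 0.20 (limma adjusted p = 0.00136). In both, T0 was the lowest stage on every array, and T3 held the lowest of the later arrays. T3 replicate 1 was the low one for RpS29 and T3 replicate 3 for RpL29.

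RpS28b, which lies near the exit of the messenger RNA, followed with a log2 difference of 0.89 ± 0.16 (limma adjusted p = 0.00056). Its signals were 3737, 3593 and 3974 at T0, 6968, 6639 and 7404 at T1, 8216, 6991 and 7016 at T2, 7144, 6929.7 and 6629 at T3, and 6775, 6324 and 7654 at T4. RpL24-like, whose yeast relative Rlp24 is an assembly factor of the large subunit, had 326, 250.4 and 354 at T0, 609, 549 and 551 at T1, 692, 560.4 and 725 at T2, 712, 691 and 667 at T3, and 580.0, 451 and 550.1 at T4. Its difference in T1 against T0 was 0.88 ± 0.19 (limma adjusted p = 0.00214). RpS15, at the head of the small subunit, had 4401, 4569 and 4818 at T0, 7776, 8326 and 7783 at T1, 8258, 8223 and 8317 at T2, 7763, 8291 and 7745 at T3, and 7691, 9284 and 7979 at T4, with a difference of 0.79 ± 0.15 (limma adjusted p = 0.00105). The T0 arrays of all 3 genes lay below all of their later arrays.

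The other members called in this comparison rose by log2 differences between 0.55 for RpL27 and 0.79 for RpS21. They were RpL3, RpL23, RpL27, RpL32, RpL36A, RpL37-1, RpL37A, RpL39, RpL40 and RpLP2 of the large subunit, and RpS7, RpS12, RpS18, RpS20, RpS21 and RpS30 of the small subunit. Among them, RpL40 and RpS30 are made as fusions to ubiquitin and to a ubiquitin-like protein, RpL39 lines the tunnel by which the new chain leaves, and RpL23 lies at the face of the large subunit that eIF6 binds. RpS12 is known in Drosophila for its part in the elimination of Minute cells beside normal cells. RpL32 is in wide use as a reference gene under its older name rp49, and it had a log2 difference of 0.62 ± 0.21 (limma adjusted p = 0.0382).

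By subunit, 12 of 19 large-subunit members that lay above the negative controls on all arrays rose, with a median log2 difference of 0.62, and 9 of 12 small-subunit members rose, with a median of 0.70. Without RpL24-like and RpL7-like 11 of 17 large-subunit members rose, and the median was again 0.62. Members above the controls that were not called were RpL7-like, RpL10Ab, RpL17, RpL28, RpL37-2, RpLP0, RpLP1, RpS5b, RpS26 and RpS27A. Their log2 differences lay between 0.12 for RpL37-2 and 0.58 for RpL17, so that all 31 were above 0. RpS27A, made as a fusion to ubiquitin, had 3427, 3730.2 and 4036 on the T1 arrays, against 2190.2, 2988 and 4223 on the T0 arrays, and T0 replicate 4 lay above all T1 arrays. RpS26, near the exit of the messenger RNA, had 10729, 8643 and 9329 at T1, against 6212, 6170.3 and 9093 at T0, and the high T0 array was again replicate 4. Both genes are shown after their values were seen. With quantile normalization 4 of the 36 members were called higher, where 17.7% of the probe sets tested were, and the members' median log2 difference was 0.15, against 0.12 over all probe sets. This scaling gives every array the same set of values. Most members hold top ranks on every array, and a signal's value under it depends only on its rank. Here and below its counts therefore read changes of rank, and not a rise that the brightest probe sets share. How far members at top ranks can move under it was not tested.

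**Figure D2:**
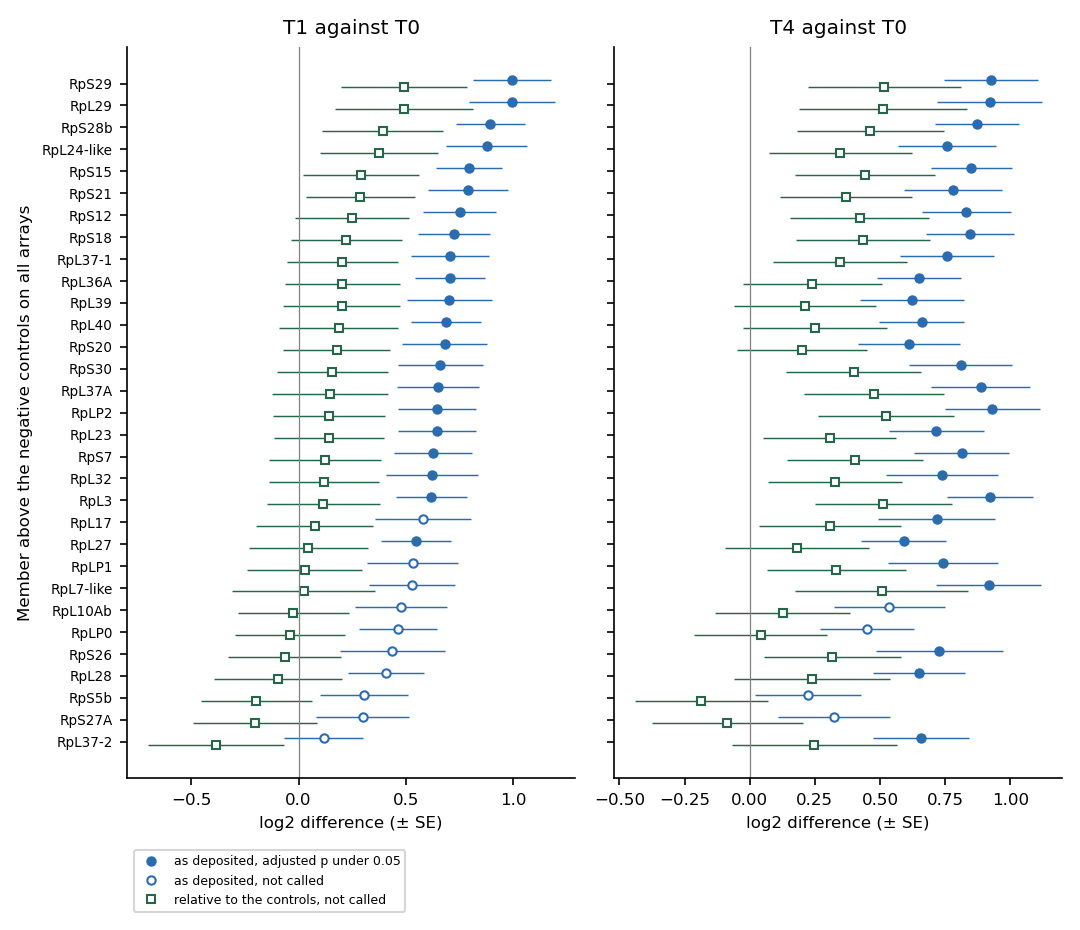
Log2 difference with its standard error for the 31 members above the negative controls on all arrays, in T1 against T0 and T4 against T0, as deposited (circles, filled where the limma adjusted p is under 0.05) and relative to the controls (squares). All circles lie above 0, with 21 filled for T1 against T0 and 27 for T4 against T0, and all squares are open.

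The controls on the arrays moved with this difference. Their geometric mean was 770.2, 638 and 743 at T1, against 516, 377 and 646 at T0. Relative to these controls 0 of 36 members were called higher and 0 lower in T1 against T0, where 2.77% of the probe sets tested were higher and 21.2% lower (limma, Benjamini-Hochberg adjusted p under 0.05). At an unadjusted p under 0.05 the count was 0 as well. The median log2 difference of the members relative to the controls was 0.12, against -0.43 over all probe sets. On 2 of 36 members, and on 5.59% of all probe sets, every T1 array lay above every T0 array on this scale. The median was 0.28 without T0 replicate 3, the array with the lowest controls, and 0.03 without T0 replicate 4. The array medians of the members spread less within a stage as deposited, with a log2 SD of 0.090, than relative to the controls, with 0.197.

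On the scale of the controls RpS29 and RpL29 again had the highest log2 differences among members above the negative controls, 0.49 ± 0.29 and 0.49 ± 0.32 (SE), with limma adjusted p of 0.265 and 0.313. RpL37-2 had the lowest, -0.38 ± 0.32, with an adjusted p of 0.428. RpL3 had 0.12 ± 0.26 and RpS20 0.18 ± 0.25. RpL10Ab, RpL28, RpL37-2, RpLP0, RpS5b, RpS26 and RpS27A lay below 0, and the other 24 of the 31 above it.

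**Figure D3:**
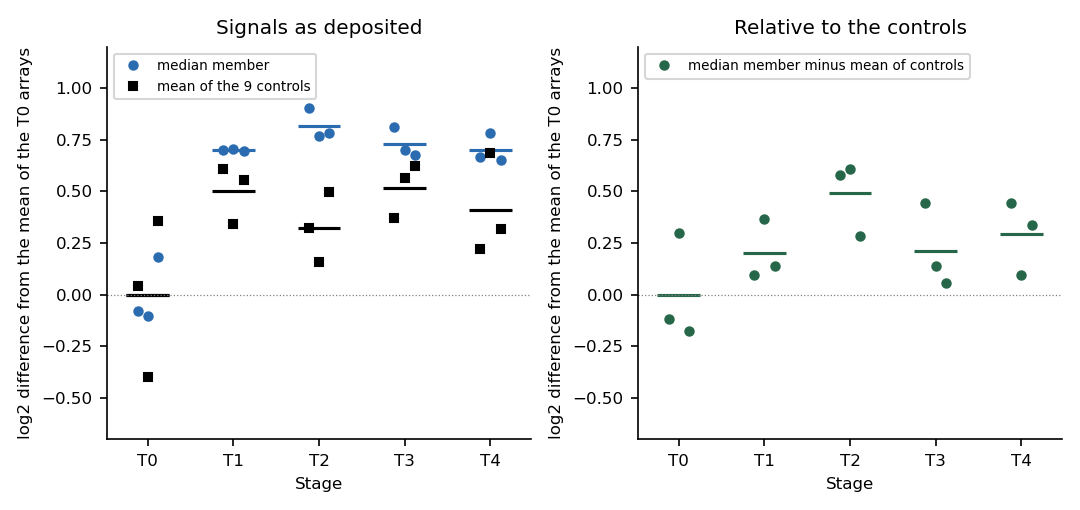
Log2 level on each array relative to the mean of the 3 T0 arrays, with bars at stage means, for the median member and the mean of the 9 controls as deposited (left) and for their difference (right). The T0 arrays of the median member are below all later arrays on the left, and on the right T0 replicate 3 lies among the later arrays.

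In the later steps no member was called on either scale. In T2 against T1 the median log2 difference of the members was 0.15 as deposited, close to 0.14 over all probe sets, with calls for 7.63% of the probe sets tested higher and 5.72% lower. Relative to the controls it was 0.33, against 0.32 over all probe sets, of which 6.85% were higher by the test and 2.76% lower. At an unadjusted p under 0.05 there were 2 members on each scale, both among the members that were not above the negative controls on all arrays. On 7 of 36 members the T2 arrays lay above the T1 arrays as deposited, where 18.1% of all probe sets did so. Relative to the controls this was so on 15 of 36 members and on 24.5% of all probe sets. RpL28, a protein of the large subunit, was one of the 7, with 2612, 3044 and 2371 at T2 against 2066, 2354 and 1883 at T1, and it is named after its values were seen.

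In T3 against T2 the median of the members was -0.10 as deposited, against 0.00 over all probe sets, and -0.29 relative to the controls, against -0.20. As deposited 0.866% of the probe sets tested were higher and 0.974% lower, and relative to the controls 0.122% higher and 0.465% lower. In T4 against T3 the median was 0.04 as deposited, against 0.07 over all probe sets, and 0.15 relative to the controls, against 0.17. Here 0.616% were called higher and 0.738% lower as deposited, and 0.208% higher and 0.1% lower relative to the controls. No member had an unadjusted limma p under 0.05 in these 2 steps on either scale. Across the 4 steps the moderated F test called 24 of 36 members as deposited, where it called 44.1% of all probe sets, and 0 of 36 relative to the controls, where it called 35.0%. With quantile normalization it called 4 of 36, where it called 42.0%.

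The comparison of T4 with T0 spans the whole series. As deposited 27 of 36 members rose and 0 fell, where 17.5% of all probe sets rose and 15.5% fell (limma, Benjamini-Hochberg adjusted p under 0.05). Again no share was taken over probe sets as bright as the members. The median log2 difference was 0.74, against 0.19 over all probe sets, and 0 calls reached a log2 difference of 1, which 11.9% of all probe sets passed as higher calls. The middle member had 6323, 6889 and 6276 on the T4 arrays, against 3768, 3711 and 4521 on the T0 arrays. On 29 of 36 members all T4 arrays lay above all T0 arrays, as they did on 26.1% of all probe sets. With quantile normalization 4 of 36 members were called higher, where 15.7% of the probe sets tested were, and the median was 0.15, against 0.04 over all probe sets. T4 and T1 are both set against the same T0 arrays, so these differences are not independent of those above.

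RpLP2 of the stalk had the highest log2 difference among the members called, 0.93 ± 0.18 (SE; limma adjusted p = 0.00109). Its signals were 4652, 4453 and 5138 at T0, 7256, 7740.5 and 7249.9 at T1, 7847, 6773 and 7627 at T2, 7881, 7158 and 7973 at T3, and 7862, 11500.2 and 8187 at T4. All its T0 arrays were below its later ones, and T4 replicate 2 stood above every other array. RpS29, RpL3 and RpL29, with the signals given above, had differences of 0.93 ± 0.18, 0.92 ± 0.16 and 0.92 ± 0.20 (limma adjusted p of 0.00112, 0.000539 and 0.00244). RpL7-like, whose yeast relative Rlp7 is an assembly factor of the large subunit, had 240.5, 265 and 189 at T0, 312, 306 and 388 at T1, 367, 439 and 330.2 at T2, 463, 418 and 382 at T3, and 377, 440.3 and 509 at T4. Its difference was 0.92 ± 0.20 in T4 against T0 (limma adjusted p = 0.00259), while 0.53 ± 0.20 in T1 against T0 was not called (limma adjusted p = 0.0604).

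The members that rose in T4 against T0 were 17 of the 19 large-subunit members above the negative controls, with a median log2 difference of 0.72, and 10 of the 12 small-subunit members, with a median of 0.81. Without RpL24-like and RpL7-like they were 15 of 17 large-subunit members, with a median of 0.72. Those not called were RpL10Ab with 0.54 ± 0.21, RpLP0 with 0.45 ± 0.18, RpS27A with 0.32 ± 0.22 and RpS5b with 0.22 ± 0.20 (SE). RpL17, RpL28, RpL37-2, RpL7-like, RpLP1 and RpS26 were called here and not in T1 against T0. T4 was not tested against T1 directly.

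Relative to the controls 0 of 36 members were called in T4 against T0 in either direction, where 7.11% of the probe sets tested were higher and 19.0% lower, and 0 of 36 had an unadjusted limma p under 0.05. The controls' geometric mean was 587, 816 and 628 at T4, against 516, 377 and 646 at T0. The median log2 difference was 0.33, against -0.22 over all probe sets, and 29 of the 31 members above the negative controls lay above 0. All T4 arrays lay above all T0 arrays for 9 of 36 members, and for 9.67% of all probe sets. RpLP2 had 0.52 ± 0.26 (SE), RpS29 0.52 ± 0.29 and RpL3 0.51 ± 0.26, with limma adjusted p of 0.176, 0.243 and 0.19. With an intensity trend and robust settings RpL3, RpL37A, RpLP2 and RpS18 were called higher on this scale (limma adjusted p between 0.016 and 0.046), a setting added after seeing the data.

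Both genes were measured in 3 pairs of gene copies that are named by the same number. RpL10Ab, of the side stalk at which transfer RNA leaves, had 5641, 4973 and 9141 at T0, 9366, 8737 and 8460.3 at T1, 9239, 8101 and 8785 at T2, 8919, 9944 and 8473 at T3, and 8495, 9702 and 9492 at T4, while RpL10Aa reached the level of the negative controls on 1 array. RpL10Ab was not called, and T0 replicate 4 lay among its later arrays. RpS28b was above the negative controls on all 15 arrays and RpS28a on 0 of 15. RpL37-1 had 3686, 4027 and 5059 at T0, 6579.5, 6472 and 7663 at T1, 7344, 7106 and 8211 at T2, 7236, 7739.7 and 7429.6 at T3, and 6252, 8085 and 7184 at T4. Its copy RpL37-2 had 115, 98.2 and 94.7 at T0, 111, 134 and 93.9 at T1, 136, 145 and 143 at T2, 195, 168 and 147 at T3, and 169, 149 and 181 at T4. The T0 and T1 arrays of RpL37-2 overlapped, whereas those of RpL37-1 did not. How far a probe set also reads the RNA of the other copy was not tested.

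To ask whether single members moved apart from the rest, the median log2 value of the 36 members was subtracted from each array. For bright probe sets the array's scaling then nearly drops out. A constant was added to every signal before the log2, so for dim probe sets, RpL22-like among them, the scaling does not drop out. The shares over all probe sets on this scale include dim probe sets. Over the 4 steps the F test then called 0 of 36 members, with 46.6% of all probe sets called, and the lowest adjusted p of a member was 0.094. In T1 against T0 RpL37-2 fell by 0.59 ± 0.21 (SE) on the log2 scale relative to the median member (limma adjusted p = 0.04), where 34.1% of all probe sets fell and 2.91% rose. The median over all probe sets on this scale was -0.63, and the deposited difference of RpL37-2 was 0.12. In T4 against T0 RpS5b fell by 0.48 ± 0.18 relative to the median member (limma adjusted p = 0.048), where 32.4% of all probe sets fell and 6.44% rose. Here the median over all probe sets was -0.51, and the deposited difference of RpS5b was 0.22. RpL22-like was also called lower (limma adjusted p = 0.049), but it lay below the negative controls on all arrays and no fold is given. These 3 calls were near the threshold: with 1 array left out they held in 11 of 15 fits for RpL37-2, 2 of 15 for RpS5b and 3 of 15 for RpL22-like.

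RpS5b is a copy of a small-subunit protein that in Drosophila is known from the ovary. The other copy is not among the 36 members, and how far the RpS5b probe set also reads its RNA was not tested. RpS5b had signals of 5093, 4787 and 7756 at T0, 7609, 7085 and 6622 at T1, 8284, 7169 and 7711 at T2, 7448, 6835 and 6973 at T3, and 6462, 7907 and 5908 at T4. Its T0 arrays overlapped with those of every later stage, with T0 replicate 4 the third highest of all 15 arrays, while the median member was lower on all T0 arrays than later. Without T0 replicate 4 its difference from the median member in T4 against T0 was -0.35, and it was not called (limma adjusted p = 0.14). RpS27A had a difference from the median member of -0.40 ± 0.20 in T1 against T0 and of -0.38 ± 0.20 in T4 against T0 (limma adjusted p of 0.128 and 0.153). The within-stage SD of the log2 signal was 0.165 for the middle one of the 31 members above the negative controls, 0.247 over 4562 probe sets that passed the same filter and 0.408 over all probe sets.

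**Figure D4:**
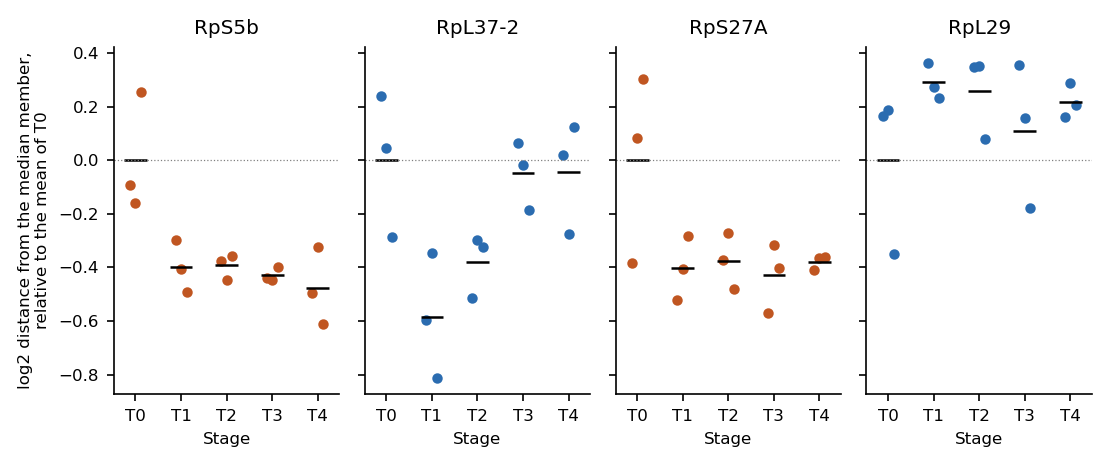
Log2 distance of RpS5b, RpL37-2, RpS27A and RpL29 from the median member on each array, relative to the mean of the T0 arrays, with bars at stage means. The stage means of RpS5b and RpS27A lie lower after T0 and that of RpL37-2 is lowest at T1.

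Other genes of the ribosome pathway were counted in lists, whose deposited differences can be read against 15.7% of all probe sets higher and 17.1% lower in T1 against T0. Of 29 assembly and nucleolus genes 20 rose and 4 fell, with a median log2 difference of 0.78. Fib, which methylates ribosomal RNA, had signals of 2061 ± 315 at T1, against 1180 ± 74.0 at T0 (SD, n = 3 each), and a log2 difference of 0.79. The nucleolar protein mod had 3271 ± 282 at T1, against 1418 ± 213 at T0, and a difference of 1.21. Non1 and Nnp-1 also rose, by 0.78 and 1.31. The 4 genes that fell were eIF6, which keeps free large subunits from joining small ones, Nop17l, RIOK2 and l(3)72Dn. Relative to the median member 1 of the 29 rose and 5 fell, where 2.91% of all probe sets rose and 34.1% fell.

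Of 6 elongation and termination factors, eEF1gamma, eEF1delta and eEF5 rose in T1 against T0 by log2 differences of 1.06, 0.86 and 0.73, and the termination factor eRF3 fell by 1.62. Of 6 genes of RNA polymerase I, which makes ribosomal RNA, and its regulators, Polr1A, Polr1C and Tif-IA fell, with differences of -1.59, -2.38 and -1.58, and TAF1B rose by 1.17. Of 4 factors known at ribosomal protein promoters, M1BP, Trf2 and Dref rose by 1.13, 0.97 and 0.97, and BEAF-32 with 0.38 was not called. Of 64 mitochondrial ribosomal protein genes 10 rose and 20 fell, with a median of 0.00. Relative to the median cytoplasmic member 36 of these 64 fell and 0 rose in T1 against T0, where 34.1% of all probe sets fell. In T4 against T0 42 fell and 0 rose, where 32.4% fell. On this scale the median log2 difference of the 64 was -0.70 in T1 against T0, against -0.63 over all probe sets. In T4 against T0 it was -0.71, against -0.51.

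In T4 against T0 as deposited, where 17.5% of all probe sets rose and 15.5% fell, 16 of the 29 assembly genes rose and 3 fell, with a median log2 difference of 0.73, and M1BP rose by 1.62. The factors eEF1gamma and eEF5 rose by 1.03 and 0.63. Polr1B rose by 0.86, and Tif-IA and Polr1H fell, with differences of -1.19 and -0.84. Of the 64 mitochondrial genes 5 rose and 15 fell, beside the same shares. Relative to the controls the counts for T1 against T0 were 0 higher and 5 lower for assembly, 0 and 1 for elongation and termination, 0 and 5 for RNA polymerase I, 0 and 0 for the promoter factors and 0 and 25 for the mitochondrial genes, where 2.77% of the probe sets tested were higher and 21.2% lower. On that scale 3 of the 29 assembly genes rose and 4 fell in T4 against T0, and 0 of the 64 mitochondrial genes rose and 21 fell, where 7.11% of the probe sets tested were higher and 19.0% lower.

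**Figure D5:**
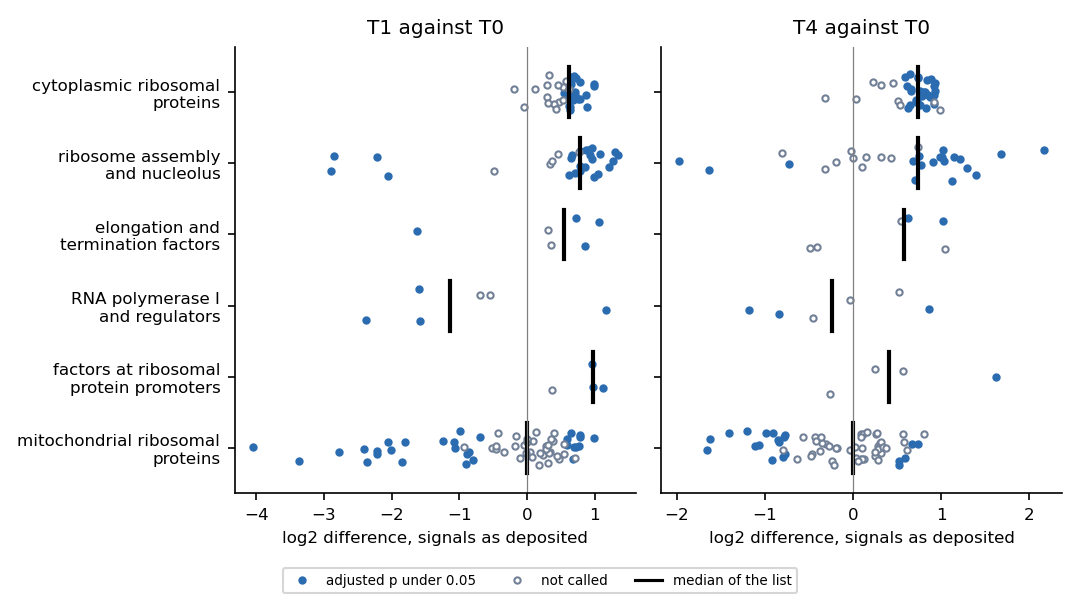
Log2 difference of deposited signals in T1 against T0 and T4 against T0 for each measured gene of 6 lists, with filled points where the limma adjusted p is under 0.05 and a bar at the median of each list. Of the 36 cytoplasmic ribosomal proteins 34 lie above 0 in T1 against T0 and 35 in T4 against T0, with medians of 0.62 and 0.74. The mitochondrial ribosomal proteins spread widely around medians of 0.00.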

How the data were processed

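Signals of 14010 probe sets on 15 arrays were read from the table deposited by the authors. Its values are intensities on a linear scale, made with MAS5 per the submitters' processing notes; its version is not given in the sources used here. The 2% trimmed mean was 100 on every array. No detection calls were used. Genes were named from the platform annotation, which gave 12443 probe sets 1 symbol, 327 several and 1196 none, and a RefSeq gene table served for current names. No coordinates or sequences are printed because the table's genome build is not given in the sources used here and no sequence was given.

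The test scale was log2(signal + 7.3), which understates differences of dim genes; 7.3 is the 25th percentile of signals on the median array. The 44 control probe sets were left out. All arrays entered 1 linear model with 5 stage means in limma 3.58.1 in R 4.3.3 (lmFit, eBayes), and p-values were adjusted by Benjamini-Hochberg over 13966 probe sets, with no minimum fold. The fit was repeated after subtracting from each array the mean log2 signal of 9 controls (7 AFFX-Bio, 2 AFFX-Cre), and after subtracting the median member. The fit was tested on simulated data with independent noise and no shift between whole arrays. That test therefore does not bear on the scaling. The number of arrays limits the precision, and whether bright probe sets were saturated cannot be read from the signals.

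The members, gene lists and tests were chosen with earlier results of these data known. All 15 arrays are given for the 3 highest and 3 lowest members, the 5 highest differences among calls in T1 and T4 against T0, pairs of copies and members called apart from the median, save that ranges stand for RpS28a and RpL22-like. List genes named are up to 4 called per list and comparison with the highest mean signal, and in the RNA polymerase I, assembly and promoter lists also others named by their call. Same-numbered arrays of different stages had correlations of their deviations between -0.042 and 0.075 over 23 pairs, so the numbers were not taken to pair arrays. Alternatives were other scalings, pseudocounts, filters, variance settings, the replicate block and each array left out.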

Additional observations from a re-analysis of the deposited data

Results flagged for a closer look

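Signals outside the 36 members were seen above the negative controls for a related gene and for a probe set with more than 1 symbol. RpLP0-like, whose symbol did not meet the rule for members, had its highest stage mean signal at T2, 522.2 ± 28.6 (SD, n = 3). A probe set that the annotation gives to 2 genes, and which was therefore not counted, had its highest stage mean at T4, 66.77 ± 24.2 (SD, n = 3). Both were flagged because they lie above 21.96, the 95th percentile of the negative-control signals. Groups of 3 arrays were not screened for single deviating arrays.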

How the results depend on the processing

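Which members were called depended on the scaling of the arrays. As deposited, 21, 27 and 24 of 36 members were called in T1 against T0, T4 against T0 and over all steps. Centred on AFFX-Bio and AFFX-Cre, on AFFX-Bio alone or on AFFX-Cre alone all 3 counts were 0, and with quantile normalization they were 4, 4 and 4. The counts with quantile normalization carry the limit given above, that they read changes of rank. Over all probe sets the calls in T1 against T0 were 2187 higher and 2384 lower as deposited and 387 higher and 2958 lower relative to the controls. The median log2 difference of the members, for AFFX-Bio and AFFX-Cre, AFFX-Bio and AFFX-Cre alone in that order, was 0.12, 0.13 and 0.11 in T1 against T0, 0.33, 0.34 and 0.29 in T2 against T1, -0.29, -0.30 and -0.26 in T3 against T2, 0.15, 0.14 and 0.18 in T4 against T3, and 0.33, 0.33 and 0.35 in T4 against T0. Quantile normalization gave medians of 0.15 in T1 against T0, 0.032 in T2 against T1 and 0.15 in T4 against T0, and turned RpL27 to -0.025 in T1 against T0 and to -0.079 in T4 against T0, and RpS20 to -0.10 in T4 against T0. Centring on the array median gave medians of 0.80, -0.10, -0.10 and 0.52 in T1 against T0, T2 against T1, T4 against T3 and T4 against T0. With it all 21 calls in T1 against T0 were kept, and 13 members were called higher in T4 against T0. Needing a log2 difference of at least 1 left 0 and 0 calls in T1 and T4 against T0. The cause of these shifts was not tested.

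With the other pseudocounts, the filter on dim probe sets and the trend and robust settings all of the 21 and 27 genes stayed called, except that 1 of the 21 was lost with a pseudocount of 1. Leaving out 1 array gave 14 to 23 calls in T1 against T0, 0 to 1 in T2 against T1, 21 to 30 in T4 against T0 and 15 to 26 over all steps, where 15 was reached without T0 replicate 3. Medians ranged from 0.58 to 0.71 in T1 against T0, 0.10 to 0.19 in T2 against T1, -0.13 to -0.05 in T3 against T2, -0.056 (without T4 replicate 2) to 0.11 in T4 against T3 and 0.66 to 0.85 in T4 against T0. Relative to the controls, alternatives added after seeing the data gave 4 calls in T4 against T0 and 2 over all steps with trend and robust settings. Leaving out 1 array there gave 0 to 1 lower calls in T1 against T0 and T4 against T0 and 0 to 1 higher calls in T2 against T1, with medians of 0.03 to 0.28, 0.27 to 0.41, -0.37 to -0.20, 0.04 to 0.24 and, for T4 against T0, 0.24 to 0.46.

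Members called apart from the median member, 1 in T1 against T0 and 2 in T4 against T0, numbered 0 and 0 with a pseudocount of 1, and 0 and 1 with the dimmest 40% left out. With trend and robust settings they numbered 4 and 4, and 2 over all steps. A pseudocount at the median signal gave 6 in T1 against T0 and 5 over all steps. Leaving out 1 array gave 0 to 2, 0 to 1 and 0 to 2 in T1 against T0, T2 against T1 and T4 against T0, and 0 to 3 over all steps. In the fit with a replicate block, 20 of the 21 and 26 of the 27 calls were kept, and RpL37-2 and RpS5b lost their calls relative to the median member (limma adjusted p of 0.058 and 0.12). Averaging several probe sets of a gene was not run, since each gene had 1, and promoter motifs were not searched, as no promoter sequence was given.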
